A study of Mus musculus with 4 samples.

Results

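To examine how knockdown of the m6A reader YTHDF2 in mouse embryonic stem cells (ESCs) bore on the machinery of protein synthesis, the genes of the translation initiation factors (names beginning Eif1 to Eif6) and of the elongation factors (names beginning Eef1 or Eef2) were read out from RNA-seq. Membership was set by gene name, and the choice was made with earlier results of these data known. The Eif2ak kinases and rows ending in -ps plus a number, which are pseudogenes, were left out, and 70 of 49997 genes in the table remained. The libraries came from E14 cells, a mouse ESC line that per the study's methods carried a MERVL-tdTomato reporter, grown on gelatin with LIF and without feeder cells. All cells had received a lentiviral shRNA under a U6 promoter with puromycin selection, either a scrambled control hairpin (shScramble, 2 libraries) or a hairpin against Ythdf2 (shYthdf2, 2 libraries). Which Ythdf2 hairpin the shYthdf2 libraries carried is not in the labels. The study's methods call the 2 replicates of a group independent biological ones, and the labels add nothing on how they were separated.

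Translation of most mRNAs starts when eIF4E binds the cap, eIF4G bridges it to the ribosome and the helicase eIF4A opens the leader. The small ribosomal subunit arrives with eIF3, with eIF1 and eIF1A, and with eIF2, which carries the initiator tRNA and GTP, while eIF2B recharges eIF2 after each round. eIF5 and eIF5B then join the subunits, after which eEF1A delivers each aminoacyl-tRNA, eEF2 moves the ribosome along and eIF5A helps it past difficult peptide bonds. YTHDF2 binds N6-methyladenosine in mRNA and promotes decay of the bound transcripts.

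The libraries held 31113006 to 36422510 counted reads. Levels are given as CPM (reads per 1000000 reads of the library total after TMM scaling) to compare a gene between libraries, and as TPM (the same kind of share, corrected for exon length) to compare genes with each other. Where a library held no read of a gene, the upper limit was 3 reads, or 0.0833 to 0.0952 CPM, which covers counting error only. Ythdf2 stood at 93.4 and 87.6 CPM in shScramble and at 31.8 and 30.2 CPM in shYthdf2 (log2 fold change -1.55 ± 0.11, SE, adjusted p = 0.00069 by edgeR). The 8 pluripotency markers summed to 6098 and 5986 CPM in shScramble and to 5684 and 5243 CPM in shYthdf2. Of these 8, 6 had a negative fold change, and 1, Tdgf1, fell (log2 fold change -0.47 ± 0.11, adjusted p = 0.041). The 15 markers of 2C-like cells, the rare cells of ESC cultures that resemble the embryo after its first division, summed to 48.8 and 79.3 CPM in shScramble and to 108 and 306 CPM in shYthdf2, so the libraries of each group differed among themselves and shYthdf2 replicate 2 was highest. Of the 14 tested, 4 rose and 0 fell at an adjusted p under 0.05. The 4 neuroectoderm markers summed to 29.0 and 30.0 CPM in shScramble and to 46.6 and 39.7 CPM in shYthdf2, and 1 of them, Nes, rose (log2 fold change 0.79 ± 0.17, adjusted p = 0.035). Fibroblast, mesoderm and primitive endoderm sums lay between 6.06 and 23.7 CPM, and the fibroblast marker Dcn had no reads. The part of these cells in the results was not tested. In bulk RNA, fewer cells of a type and less RNA per cell cannot be told apart.

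Most of the translation factor genes stayed close to their control level. Of the 70 genes, 67 passed the filter on low counts and were tested, and 55 of these (82.1%) had a log2 fold change within 0.25 of 0, compared with 49.5% of the 18341 genes tested in all. Their median was 0.03 (-0.03 to 0.10 with 1 library left out) and that of all tested genes was 0.00. By edgeR's quasi-likelihood test, at a Benjamini-Hochberg adjusted p under 0.05, 1 factor gene rose (Eif3l) and 2 fell (Eif4a2 and Eif4g3). These 3 genes were 4.48% of the factor genes tested, beside 3.91% of all tested genes called (2.43% higher and 1.49% lower), so the share of calls was near the background. Most of the factor genes are abundant, and restricted to genes with a mean of at least 10 CPM the figures were 5.17% of 58 factor genes and 5.38% of all 9537 genes, with 84.5% and 65.3% within 0.25 of 0. Before adjustment, 5 factor genes were higher and 5 lower at p under 0.05, beside 20.8% of all genes. Both shYthdf2 libraries lay above both shScramble libraries for 18 factor genes (26.2% of all genes did so) and below both for 15 (25.5% of all genes). Under the criteria the study used for differential expression, a DESeq2 p of at most 0.05 and at least a 2-fold change, 0 factor genes passed, beside 2.88% of the 30565 genes with a read. The plot of fold changes by factor group shows the 3 called genes together with a pair of eIF4A3 copies and Eif5a2, which lie apart from the rest.

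**Figure D1:**
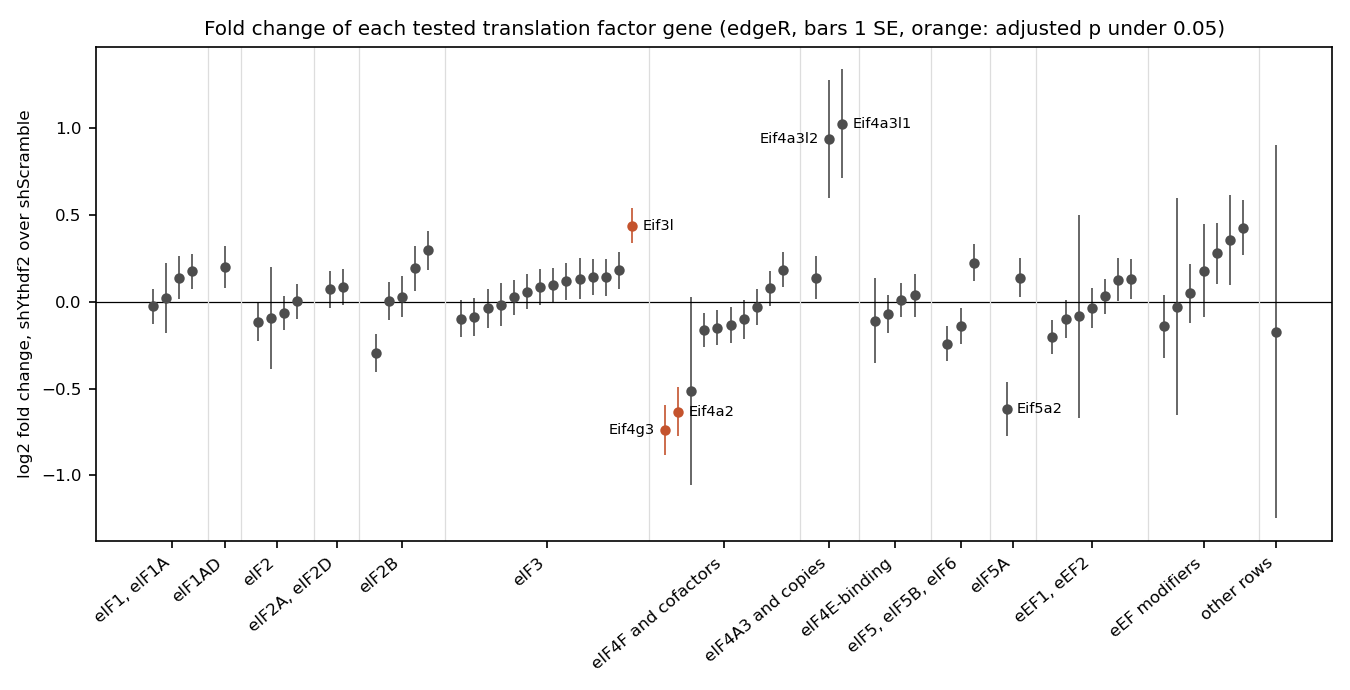
Log2 fold change of shYthdf2 over shScramble (vertical axis) for each of the 67 tested genes, ordered within factor groups, with bars of 1 SE from the edgeR fit and the genes with an adjusted p under 0.05 in orange. Eif4g3 (-0.74) and Eif4a2 (-0.63) are the called falls and Eif3l (0.44) the called rise, while Eif4a3l1 (1.03) and Eif4a3l2 (0.94) have the highest values with wide errors.

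The factor genes spanned the whole range of expression of these cells. On the TPM scale, Eef1a1, which encodes the main eEF1A, was the most abundant of all genes in the table, with a mean of 14150 TPM over the 4 libraries. Eef2 ranked 24th (3163 TPM), Eef1g, a subunit of the eEF1 exchange complex, ranked 34th (2609 TPM) and Eif4a1 ranked 51st (2185 TPM). A mean above 100 TPM was found for 39 of the 70 genes. Together the 70 genes took 3.34% and 3.35% of reads in shScramble and 3.25% and 3.13% in shYthdf2. Both knockdown libraries were thus slightly below both controls. Eef1a1 alone, which did not pass the test, took 1.05% and 1.06% in shScramble and 0.929% and 0.896% in shYthdf2. The lower total can therefore not be read as a shift of the 70 genes together. At the other end, 3 genes were not tested. The oocyte-type cap-binding gene Eif4e1b had 4 and 1 reads in shScramble and 10 and 0 in shYthdf2. The processed copy Eif5al3-ps had 8, 4, 9 and 4 reads, and the readthrough row Eef1akmt4-ece2 had 0 reads in every library. The row Eif2c5, whose name is an older one for an Argonaute and which belongs to no factor group, was tested at 0.0317 to 0.444 CPM.

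**Figure D2:**
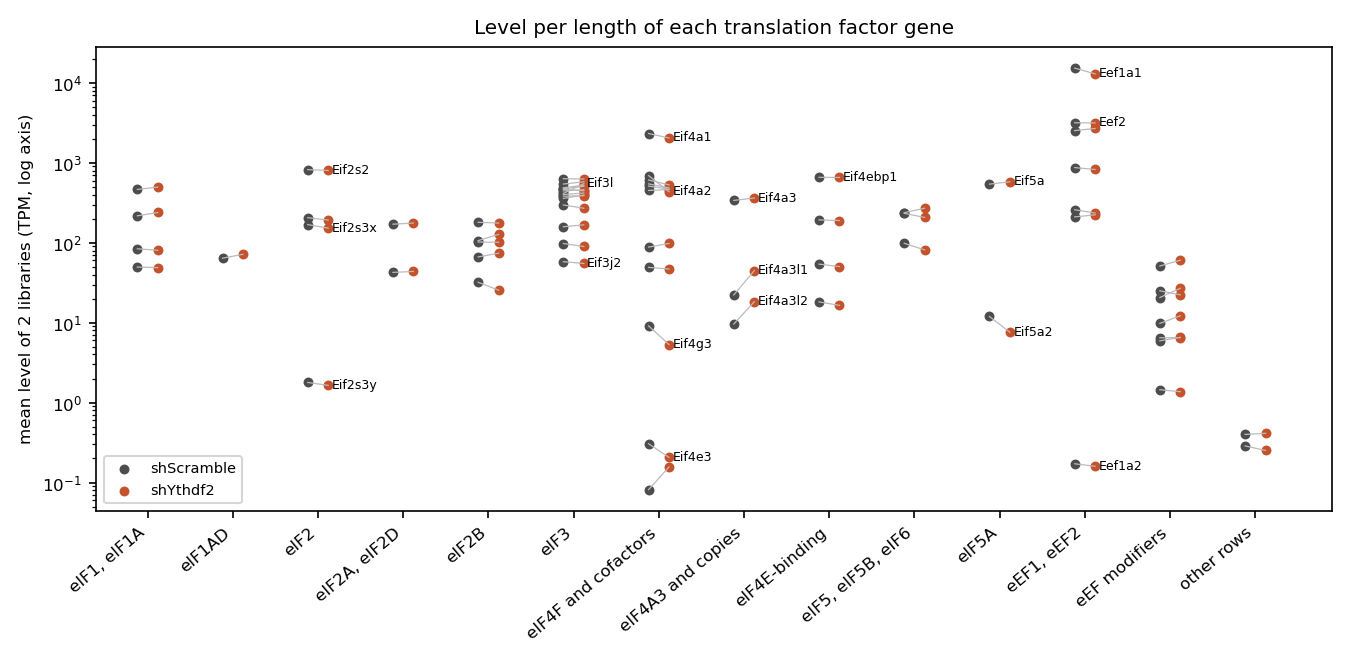
Mean level of each gene in TPM on a log axis, by factor group, with the 2 shScramble libraries in grey and the 2 shYthdf2 libraries in orange, joined by a line for each gene. Genes listed at 0 in either group are left out. Levels run from a mean of 0.119 TPM for Eif4e1b to 14150 TPM for Eef1a1, and for most genes the joining lines are flat.

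The cap-binding and helicase group contained both of the genes that fell. Of its 10 tested genes 2 passed the test, both lower, 8 had a negative fold change, and the group median was -0.14. In 6 of the 10 both shYthdf2 libraries lay below both shScramble libraries, and in 1 above both. Over all tested genes 1.49% were called lower, 9128 of 18341 had a negative value, and 25.5% lay below and 26.2% above both control libraries. Counts in so small a group are a description only. Eif4g3, a minor eIF4G scaffold, stood at 39.9 and 35.4 CPM in shScramble and at 24.4 and 20.8 CPM in shYthdf2, so the groups were clearly apart. Its log2 fold change was -0.74 ± 0.15 (SE, adjusted p = 0.029). Eif4a2, the second eIF4A helicase, stood at 717 and 971 CPM in shScramble and at 534 and 555 CPM in shYthdf2. The knockdown libraries were close together and below both controls, whereas the controls differed from each other by more than the lower control differed from the knockdown. The log2 fold change of Eif4a2 was -0.63 ± 0.14 (adjusted p = 0.039), and without shScramble replicate 2 it was -0.40 with an adjusted p of 0.234. The exons of Eif4a2 overlap those of Rfc4 over 5.02% of their length, and reads there were left out of the counts.

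The main forms of the same proteins did not pass the test. Eif4a1, the major eIF4A, stood at 1728 and 1630 CPM in shScramble and at 1561 and 1469 CPM in shYthdf2 (log2 fold change -0.15 ± 0.10, adjusted p = 0.45). Some reads of Eif4a1 can be missing from its count, because 17.8% of its 150-base windows also occur in other genes. The main one is the pseudogene Eif4a-ps4, whose own row held 12222 to 14807 reads. Eif4g1, the main scaffold, stood at 1204 and 1101 CPM in shScramble and at 1002 and 1098 CPM in shYthdf2. For both Eif4a1 and Eif4g1 the shYthdf2 libraries lay below both shScramble libraries, in Eif4g1 only just for replicate 2. Eif4g2, a scaffold that lacks the eIF4E-binding part, had a log2 fold change of -0.10 ± 0.11, and the helicase cofactor Eif4b one of -0.16 ± 0.10.

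Since the fitted fold change of the minor form was further from 0 than that of the major form in the eIF4A and eIF4G pairs, the share of each pair held by the minor form is given on the TPM scale. Eif4a2 made up 19.7% and 26.0% of the Eif4a1 and Eif4a2 total in shScramble and 16.8% and 18.2% in shYthdf2. This share may be too high, since 17.8% of the Eif4a1 windows are shared with other genes and 1.66% of the Eif4a2 windows. Eif4g3 made up 1.67% and 1.62% of the Eif4g1 and Eif4g3 total in shScramble and 1.23% and 0.959% in shYthdf2. These pairs are described because their minor forms fell, no test was run on the difference between 2 genes, and the counts over all pairs are given with the plot of ratios. The cap-binding proteins Eif4e and Eif4e2 did not pass the test (-0.03 ± 0.10 and 0.19 ± 0.10). Eif4e2, which can bind the cap without recruiting eIF4G, held 63.6% and 64.8% of their total in shScramble and 66.8% and 68.4% in shYthdf2. Eif4e3 was below 1 CPM in every library. The plot of levels by library sets the major and minor forms one above the other.

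**Figure D3:**
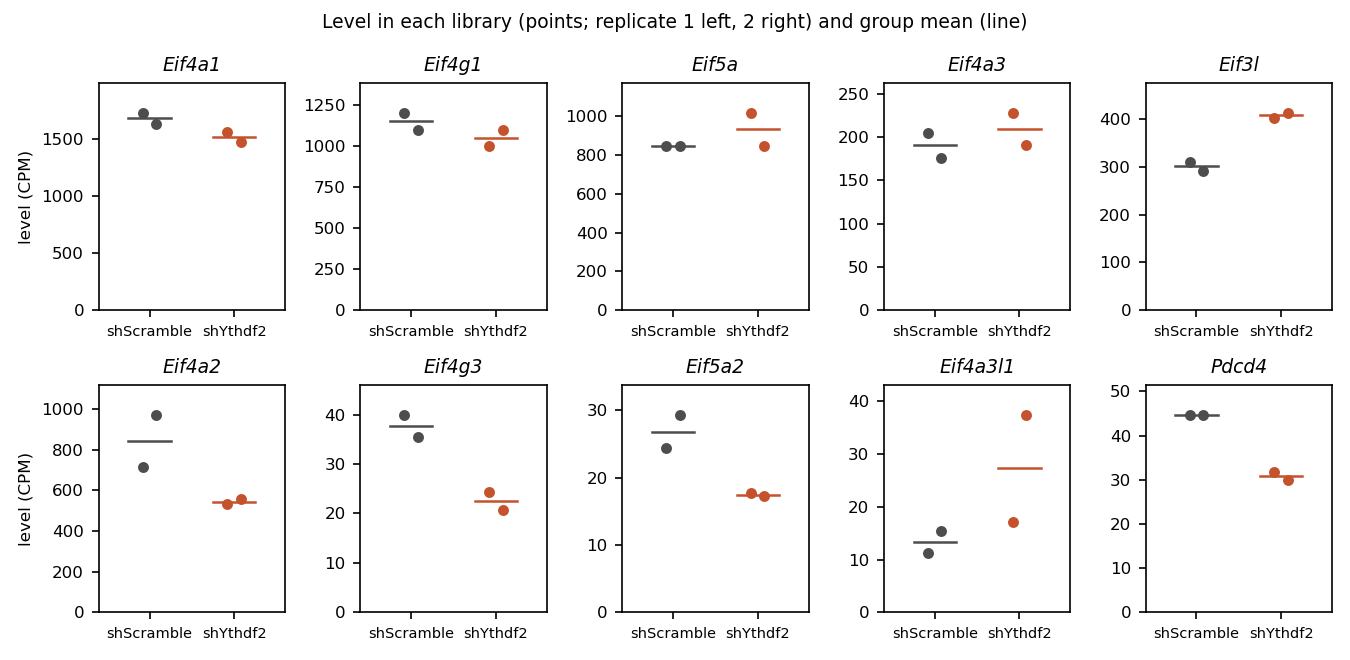
Level in each library in CPM on linear axes from 0, with points for replicates 1 (left) and 2 (right) and a line at the group mean, for Eif4a1, Eif4g1, Eif5a, Eif4a3 and Eif3l in the upper row and Eif4a2, Eif4g3, Eif5a2, Eif4a3l1 and Pdcd4 in the lower row. The shYthdf2 points of Eif4a1, Eif4g1, Eif4a2, Eif4g3, Eif5a2 and Pdcd4 lie below both shScramble points, in Eif4g1 only just for replicate 2. Those of Eif3l, Eif5a and Eif4a3l1 lie above them, in Eif5a only just for replicate 2, and Eif4a3l1 has 1 high shYthdf2 point.

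The promoters of the called genes and of Eif4a1 are shown so that the major and minor helicase genes and the genes that moved in opposite directions can be compared. Each line gives the 120 bases before the RefSeq transcription start (GRCm38.p6), 5′ to 3′ on the gene's strand, with each CG in capitals. They lie at chr11:69672424-69672543 on the minus strand for Eif4a1, chr16:23107348-23107467 on the plus strand for Eif4a2, chr4:137993335-137993454 on the plus strand for Eif4g3 and chr15:79075103-79075222 on the plus strand for Eif3l. RefSeq lists 2 starts for Eif4g3, of which 1 is shown, and the deposited row of Eif4g3 spans chr4:137991779-138207086.
Eif4a1: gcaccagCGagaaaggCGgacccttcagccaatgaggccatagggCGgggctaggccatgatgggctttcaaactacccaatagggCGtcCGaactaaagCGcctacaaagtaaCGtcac
Eif4a2: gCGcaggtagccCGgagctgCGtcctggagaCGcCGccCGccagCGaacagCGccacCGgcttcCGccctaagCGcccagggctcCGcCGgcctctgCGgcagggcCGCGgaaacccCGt
Eif4g3: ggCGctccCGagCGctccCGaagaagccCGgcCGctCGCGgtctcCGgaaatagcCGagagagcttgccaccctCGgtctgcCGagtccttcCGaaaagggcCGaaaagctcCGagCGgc
Eif3l: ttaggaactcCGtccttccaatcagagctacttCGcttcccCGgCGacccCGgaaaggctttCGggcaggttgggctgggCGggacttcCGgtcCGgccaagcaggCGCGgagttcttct
The windows hold 7 CG in Eif4a1, 17 in Eif4a2, 16 in Eif4g3 and 11 in Eif3l, so the gene that rose lies between the others. CG-rich promoters were the rule for these genes. RefSeq promoters were matched for 52 of the 70 genes, with a median of 18 CG in the 250 bases before the start, compared with 6 over 27025 genes, and 84.6% of them held at least 10 CG compared with 38.2% of all.

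The group around eIF4A3, a helicase of the exon junction complex that is deposited on spliced mRNA, had the highest fold changes. Eif4a3 itself stood at 205 and 176 CPM in shScramble and at 228 and 191 CPM in shYthdf2, and the groups overlapped. Its copy Eif4a3l1 stood at 11.3 and 15.5 CPM in shScramble and at 17.1 and 37.4 CPM in shYthdf2. The other copy, Eif4a3l2, stood at 5.50 and 6.09 CPM in shScramble and at 6.82 and 15.4 CPM in shYthdf2. For both copies shYthdf2 replicate 2 was more than 2 times the other knockdown library, which itself lay just above the controls. Neither passed the test (log2 fold changes of 1.03 ± 0.31, adjusted p = 0.10, and 0.94 ± 0.34, adjusted p = 0.15), and without shYthdf2 replicate 2 the value of Eif4a3l1 was 0.35. Without any 1 of the other libraries Eif4a3l1 did pass, at 0.82 to 1.48. The order of the libraries in both copies, with shYthdf2 replicate 2 highest and shScramble replicate 1 lowest, was also that of the summed 2C-like markers given above. The part of 2C-like cells in these values was not tested.

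For the 3 genes, the 90 coding bases in which Eif4a3l1 differs most from Eif4a3 are shown, and these lie at the start. The stretch was picked for its differences, so the rest of the coding sequence is more alike. The lines give coding bases 1 to 90 of the GENCODE M21 transcripts, with bases that differ from Eif4a3 in capitals.
Eif4a3: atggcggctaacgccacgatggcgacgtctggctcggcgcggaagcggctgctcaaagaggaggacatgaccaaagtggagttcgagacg
Eif4a3l1: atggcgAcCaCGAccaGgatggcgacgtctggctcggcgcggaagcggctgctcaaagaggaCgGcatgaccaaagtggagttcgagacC
Eif4a3l2: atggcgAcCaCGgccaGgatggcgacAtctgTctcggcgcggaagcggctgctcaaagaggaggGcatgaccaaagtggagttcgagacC
Each copy differs from Eif4a3 at 9 of these bases. Over the 1233 coding bases Eif4a3l1 was 96.2% and Eif4a3l2 96.8% identical to Eif4a3, and the copies were 98.5% identical to each other. Of the 150-base windows of Eif4a3l1, 15.0% occur in another gene, as do 15.3% of those of Eif4a3l2. Reads in several places were left out, so reads of such stretches can be missing from both rows. Only 0.0887% of the Eif4a3 windows are shared.

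The promoters of Eif4a3 and Eif4a3l1 were unlike each other. They lie at chr11:119300044-119300163 on the minus strand and at chr6:136327419-136327538 on the plus strand (RefSeq, GRCm38.p6), and are printed as above with CG, and the letters TATAA, in capitals.
Eif4a3: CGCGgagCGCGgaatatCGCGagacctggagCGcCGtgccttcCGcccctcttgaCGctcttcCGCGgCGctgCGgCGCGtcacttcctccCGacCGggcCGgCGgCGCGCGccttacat
Eif4a3l1: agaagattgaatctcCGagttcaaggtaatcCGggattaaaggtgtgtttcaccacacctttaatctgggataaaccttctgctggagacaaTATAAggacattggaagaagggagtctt
The Eif4a3 window holds 23 CG and the Eif4a3l1 window 2. The letters TATAA between 40 and 20 bases before the start, on either strand, were found for 1 gene, Eif4a3l1, among the 52 matched genes and for 4.38% of all 27025 promoters. Eif4a3l2 is among the 18 genes with no matched promoter. A match is a description of the letters and not of a binding site.

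The 14 genes of eIF3, the large scaffold on the small ribosomal subunit, moved little apart from Eif3l. Eif3l, a non-core subunit, stood at 311 and 292 CPM in shScramble and at 403 and 414 CPM in shYthdf2, so the knockdown libraries were close together and clear of the controls. Its log2 fold change was 0.44 ± 0.10 (SE, adjusted p = 0.043), and this call was lost without shScramble replicate 1 (adjusted p = 0.085) and without shScramble replicate 2 (adjusted p = 0.256), at values of 0.49 and 0.39. Eif3k, which lies beside Eif3l in the complex, had 228 and 217 CPM in shScramble and 255 and 237 CPM in shYthdf2 (0.14 ± 0.10, adjusted p = 0.48). The other 13 subunit genes had log2 fold changes between -0.10 (Eif3m) and 0.18 (Eif3f), and the group median was 0.09. Levels of the 14 genes on the TPM scale ran from 56.5 (Eif3j2) to 631 (Eif3h), with a median of 431.5. In shScramble Eif3l stood at 414.5 ± 8.98 TPM (SD, n = 2), near that median. The values of Eif3j1 and Eif3j2 are uncertain, since 77.1% of the windows of Eif3j2 also occur in another gene, mainly Eif3j1.

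Genes of eIF2 and eIF2B, which control initiator tRNA delivery, gave no call. The median log2 fold change of the 4 eIF2 genes was -0.08. Eif2s1, the subunit phosphorylated under stress, stood at 253 and 245.5 CPM in shScramble and at 243 and 234 CPM in shYthdf2. Eif2s2, the most abundant of the 4 by TPM, had a log2 fold change of 0.00 ± 0.10. The X-linked Eif2s3x had -0.12 ± 0.11, with 32.8% of its windows shared with other genes, mainly Gm2223, and its Y-linked form Eif2s3y stood at 3.42 and 3.97 CPM in shScramble and at 2.95 and 3.97 CPM in shYthdf2, about 1% of the pair's TPM. The 7 Y-linked genes summed to 9.61 and 12.2 CPM in shScramble and to 8.95 and 11.4 CPM in shYthdf2.

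Among the 5 subunit genes of eIF2B, Eif2b2 and Eif2b3 differed in opposite directions without passing the test. Eif2b2, of the regulatory part, stood at 65.7 and 65.5 CPM in shScramble and at 85.6 and 75.6 CPM in shYthdf2 (0.30 ± 0.11, adjusted p = 0.17). Eif2b3, of the catalytic part, stood at 67.5 and 71.5 CPM in shScramble and at 56.2 and 57.1 CPM in shYthdf2 (-0.29 ± 0.11, adjusted p = 0.17). The catalytic subunit Eif2b5, most abundant of the 5, had 0.01 ± 0.11. Eif2a and Eif2d, which can deliver tRNA without eIF2, had 0.09 ± 0.10 and 0.07 ± 0.11.

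The scanning and joining factors also gave no call. Eif1, which guards start codon choice, stood at 239 and 212 CPM in shScramble and at 274 and 222 CPM in shYthdf2, and the groups overlapped. Its relative Eif1b had 0.02 ± 0.20. Eif1a and Eif1ax, both coding for eIF1A, had 0.18 ± 0.10 and -0.03 ± 0.10, and Eif1ad had 0.20 ± 0.12. Eif5, the GTPase activator of eIF2, had -0.14 ± 0.10. Eif5b, the subunit-joining GTPase, stood at 287 and 302 CPM in shScramble and at 241 and 258 CPM in shYthdf2 (-0.24 ± 0.10, adjusted p = 0.21), and 15.9% of its exon length overlaps other genes. Eif6, which keeps the large subunit from joining early, stood at 138 and 135 CPM in shScramble and at 169 and 150.2 CPM in shYthdf2 (0.22 ± 0.11, adjusted p = 0.27). For Eif5b and Eif6 the groups did not overlap, in opposite directions.

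The proteins that hold eIF4E back gave no call either. Eif4ebp1, the main target of mTOR among them and the most abundant by TPM, stood at 258 and 238 CPM in shScramble and at 284 and 226 CPM in shYthdf2. The log2 fold changes of the 4 genes lay between -0.11 (Eif4ebp3) and 0.04 (Eif4ebp1), and in none of the 4 were the groups apart. The value of Eif4ebp3 may be uncertain, since 59.7% of its windows also occur in another GENCODE gene, mainly AC115631.1. Its counted exons overlap no other gene, and whether reads were lost from its count was not tested.

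Neither gene of eIF5A passed the test. Eif5a2 stood at 24.3 and 29.3 CPM in shScramble and at 17.6 and 17.3 CPM in shYthdf2. The groups were apart, and the log2 fold change was -0.62 ± 0.16 (adjusted p = 0.062). The major form Eif5a stood at 848 and 847.5 CPM in shScramble and at 1019 and 849 CPM in shYthdf2 (0.14 ± 0.11, adjusted p = 0.54). Its shYthdf2 libraries lay above both controls, replicate 2 only just. Eif5a2 made up 1.96% and 2.36% of their TPM total in shScramble and 1.19% and 1.402% in shYthdf2. The deposited exon length of Eif5a, 4082 bases, includes a contig outside the main chromosomes, whereas its longest coding transcript holds 1437 bases. The TPM of Eif5a may thus be too low and the share of Eif5a2 too high, in every library alike. Exons of Eif5a2 overlap other genes over 10.7% of their length and those of Eif5a over 16.7%, mainly Gps2. Over the 13 alternatives the adjusted p of Eif5a2 ran from 0.00059 with the replicate block to 0.296 without shScramble replicate 2, and 7 of them did not call it.

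The genes named as elongation factors gave no call among 7 genes, and their median was -0.04, or -0.10 to 0.08 with 1 library left out. Eef1a1 stood at 10600 and 10450 CPM in shScramble and at 9464 and 8838 CPM in shYthdf2, so the groups did not overlap (-0.20 ± 0.10, adjusted p = 0.29). Eef2, the translocase, stood at 3750 and 3796 CPM in shScramble and at 4029 and 3685 CPM in shYthdf2, and the groups overlapped. Eef1g had 0.13 ± 0.11, with 26.4% of its windows shared with other genes, mainly Gm4366. Eef1b2, Eef1d and Eef1e1 lay between -0.10 and 0.13. Eef1a2, the form of nerve and muscle, was below 1 CPM in every library. Of 9 factor genes known to carry a terminal oligopyrimidine tract, which puts their translation under mTOR, 0 passed the test in either direction, and 6 had a positive and 3 a negative value, with a median of 0.03.

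The 7 genes that modify elongation factors gave no call, with 5 positive values and a median of 0.18. Eef2kmt, which methylates eEF2, stood at 16.5 and 17.4 CPM in shScramble and at 24.5 and 21.1 CPM in shYthdf2 (0.43 ± 0.16, adjusted p = 0.17). The groups were apart, and 21.9% of the Eef2kmt exons overlap another gene. Eef1akmt1, a lysine methyltransferase of eEF1A, had 0.28 ± 0.18. Eef1aknmt, which methylates eEF1A at its first residue and at a lysine, stood at 34.3 and 23.5 CPM in shScramble and at 26.6 and 25.8 CPM in shYthdf2, inside the range of the controls.

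Proteins that act with the factors under other names were read from a list of 54 genes. It held poly(A)-binding proteins, kinases and phosphatases of eIF2, mTOR and its targets, enzymes that modify eIF5A and eEF2, release factors, the mitochondrial factors and others. Among these others were Gigyf2 and the Igf2bp genes, and the paper describes IGF2BP2 as a protein that binds m6A. Gigyf2 had a log2 fold change of -0.37 ± 0.12 (adjusted p = 0.11). Igf2bp2 had -0.35 ± 0.12 (adjusted p = 0.15) and Igf2bp3 -0.34 ± 0.12 (adjusted p = 0.16). Igf2bp1 went the other way, at 0.13 ± 0.10 (adjusted p = 0.48). None of these passed the test. All 54 were tested, and 0 rose and 1 fell, which is 1.85% beside 3.91% of all genes. At an unadjusted p under 0.05 4 were higher and 6 lower, beside 20.8% of all genes, and the median of the list was -0.02. Both shYthdf2 libraries lay above both shScramble libraries for 9 of the 54 (26.2% of all genes did so). They lay below both for 19 (25.5% of all genes). The gene that fell, named after its values were seen, was Pdcd4, an inhibitor that binds eIF4A. It stood at 44.7 and 44.7 CPM in shScramble and at 31.9 and 29.9 CPM in shYthdf2 (-0.53 ± 0.12, adjusted p = 0.045). The groups were apart, and the call was lost without shScramble replicate 1 (adjusted p = 0.082) or 2 (adjusted p = 0.106).

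Over all 10 paralogue pairs of the list, the TPM ratio of the second-named to the first-named gene had groups that did not overlap in 6, with the second gene's share lower in shYthdf2 in 5 and higher in 1. The 5 were Eif1b, Eif1ax, Eif4a2, Eif4g3 and Eif5a2 against Eif1, Eif1a, Eif4a1, Eif4g1 and Eif5a, and the 1 was Eif4e2 against Eif4e. The fitted log2 fold change of the second gene minus that of the first was -0.60 for Eif4g3, -0.48 for Eif4a2 and -0.76 for Eif5a2, compared with -0.12 for Eif1b, -0.20 for Eif1ax, 0.22 for Eif4e2, 0.05 for Eif3j2, 0.03 for Eif2s3y, -0.03 for Eif4ebp2 and 0.12 for Eef1a2. No test was run on any of these differences, and the share of non-overlap among pairs of other genes was not computed. Among single genes 26.2% lay wholly above and 25.5% wholly below the control libraries.

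The letters GGACT, the commonest form of the m6A consensus, were counted on the sense strand of the GENCODE transcripts. The 66 factor genes with a coding transcript had a median of 1.18 per kilobase, compared with 1.02 over 21405 genes. Eif3l, which rose, held 2.06 per kilobase, Eif4a2 and Eif4g3, which fell, held 1.11 and 1.35, and Eef1a1 held 0. These letters show where the modification could lie and not whether it was there, since methylation was not measured in these libraries.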

How the data were processed

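Poly(A) RNA of 4 libraries was sequenced from both ends after dUTP strand marking. The submitters' processing notes name fastp 0.19.4, HISAT2 2.2.1 and DESeq2 1.40.2. The deposited table holds raw read counts per gene, made by the authors with featureCounts 2.0.3 over RefSeq exons of mm10. Reads of a pair were counted separately, no strand option was set and reads in several places or over several genes were left out, so overlapping, antisense and near-identical genes cannot be told apart fully. The deposited exon length, another column, gave TPM. It covers all exons of a row, and for 3 factor genes, among them Eif3i and Eif5a, it includes contigs outside the main chromosomes. TPM of such genes can be too low.

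Counts were tested with edgeR 4.0.16 (R 4.3.3) by its quasi-likelihood F test, two-sided, with TMM and without covariates, and adjusted by Benjamini-Hochberg over the 18341 genes that passed filterByExpr (minimum count 10, minimum total 15), which held 99.9% of reads. The SE is the fold change over the root of F. All genes were fitted and the factor genes printed. The scripts were tested on simulated data. With 2 libraries a group, an exact permutation test of one value cannot go below p = 0.333. Replicates of a group differed by 13.7 and 23.2 chi-square units per degree of freedom, so none is a duplicate. DESeq2 1.42.0 and limma 3.58.1 were alternatives, with other scalings, filters, halved counts, the replicate block and each library left out. Applying the study's criteria was added after seeing the data.

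The genes and lists were chosen with earlier results of these data known. Named genes are those called, the largest positive and negative fold change (mean of at least 1 CPM) and the 2 highest TPM of each factor group, paralogue pairs, and Eif2s3y with the Y-linked sum. Eif3k, Eif4a3l2, Eef1e1, Eef1d, Eef1b2, Eif4g2, Eif4e3, Eif2c5, Eif3f and Pdcd4 are named outside the rule, after their values were seen. So are Gigyf2, Igf2bp1, Igf2bp2 and Igf2bp3. Promoter and transcript sequences came from RefSeq (GRCm38.p6) and GENCODE M21. Shared windows are 150-base stretches of a gene's GENCODE transcripts that also occur in a transcript of another gene.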

Additional observations from a re-analysis of the deposited data

How the results depend on the processing

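Eif4g3 passed the threshold in 13 of 13 alternatives (-0.86 to -0.63), Eif4a2 in 12, Eif3l in 11, Eif5a2 in 6 and Eif4a3l1 in 5. Without filtering, 3 factor genes were called higher, 3 lower and 2 partners lower, beside 6.34% of all genes, and DESeq2 called 1 factor gene higher, 3 lower and 2 partners lower, beside 4.59%. Under the study's criteria 0 factor genes were called higher and 0 lower. With the replicate number as a block, 5 factor genes were higher (Eif3l, Eef2kmt, Eif2b2, Eif4a3l1 and Eif4a3l2) and 5 lower (Eif4g3, Eif4a2, Eif5a2, Eef1a1 and Eif2b3), as were 3 and 6 partners, beside 3525 of all 18341 genes against 718 without the block. Same-numbered libraries deviated together (r = 0.29 over all genes, which are not independent replicates, and 0.46 over the factor genes), but the labels name no shared batch. Leaving out 1 library gave 1 to 3 factor genes higher, 1 to 3 lower, 0 to 1 partners higher and 0 to 5 lower, beside 4.29% to 11.8% of all genes, the last without shYthdf2 replicate 2, the fit with 5 partners lower, with a remaining single library assumed to vary like the other group. The cause of these changes was not tested.

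Values near 0 changed sign. With 1 library left out so did the medians of all factor genes (-0.035 to 0.10), eEF1 and eEF2 (-0.10 to 0.076), eIF1 and eIF1A (-0.030 to 0.22), eIF2B (-0.064 to 0.12) and the eIF4E-binding proteins (-0.097 to 0.056). Eif2s2 was -1e-04 with RLE scaling, -0.0019 with library totals, -0.014 with upper-quartile scaling, -0.0045 with a mean of at least 1 CPM and -3e-04 with halved counts. Eif2b5 was -0.011 and Eif4ebp2 -0.0058 with upper-quartile scaling, Eif2b5 -0.0020 with at least 1 CPM and Eif1b -0.0040 with limma-voom. With 1 library left out, ranges were -0.29 to 0.17 for Eef1a2, -0.39 to 0.16 for Eef1aknmt, -0.064 to 0.068 for Eif2s2, -0.034 to 0.059 for Eif4ebp2, -0.34 to 0.18 for Eif4ebp3, -0.26 to 0.26 for Eif1b, -0.069 to 0.083 for Eif2b5, -0.32 to 0.10 for Eif2s3y, -0.020 to 0.074 for Eif3h, -0.14 to 0.19 for Eif4ebp1, -0.0079 to 0.26 for Eef1g, -0.035 to 0.095 for Eef2, -0.019 to 0.28 for Eif1 and -0.10 to 0.038 for Eif4e.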
